A study of Mus musculus with 6 samples.

Results

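The PYHIN genes of mouse (pyrin and HIN domain genes) were followed in group 3 innate lymphoid cells (ILC3s) of the small intestine. The set held 10 of the 33157 rows of the count table: Aim2 and the Ifi200 cluster genes Ifi203, Ifi204, Ifi206, Ifi207, Ifi208, Ifi209, Ifi211, Ifi213 and Mndal. They were chosen by family name, and from counts of these same libraries with the contrast below already known, so their differences between groups are given as a description and support nothing further. The 6 libraries came from wild-type mice. Sorted cells (lineage-negative, CD127+, KLRG1-, with dim CD45 and high CD90.2) were cultured for 4 h with recombinant mouse IFN-γ at 20 ng/mL. The 3 libraries called IFN-γ alone here, and control in the sample labels, had no further addition, and 3 libraries also received IGF-1 at 200 ng/mL. All cultures held IFN-γ, and no culture without it was part of the comparison. Nothing in the labels ties the replicates to separate animals or cultures, and the spread and p-values below may reflect technical variation only.

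Typical PYHIN proteins join a pyrin domain, which binds other pyrin domains, to a HIN domain, which binds DNA. Whether each member here has both domains was not examined. Aim2 senses double-stranded DNA in the cytosol and nucleates an inflammasome with the adaptor ASC (Pycard) and caspase-1. The Ifi200 genes were first known as genes induced by interferons, lie in one tandem cluster on chromosome 1, and include the nuclear and cytosolic DNA sensor Ifi204, a mouse relative of human IFI16. Their number and sequence vary between species, and mice carry more copies than humans.

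Total counts ranged from 32573713 to 39206449 per library. The ILC3 markers were all detected, with 12 of 12 at or above a mean of 1 CPM (the count over the TMM-scaled library size, put on a common scale), among them Il7r, Kit and Thy1. Myeloid cells express PYHIN genes strongly, so their markers were summed: the 14 macrophage and monocyte genes came to 34.5 to 55.5 CPM with IFN-γ alone and 39.3 to 43.7 CPM with IGF-1, and 9 of them, including Csf1r, Itgam, Lyz2 and Adgre1, had a mean under 1 CPM. Highest of the 14 were Mpeg1 and Cd68, with means of 20.8 and 13.5 CPM over all libraries. The 9 dendritic cell genes summed to 83.8 to 91.9 and 77.6 to 88.0 CPM. Ccr9, Batf3 and Zbtb46 were the highest of these (means of 46.2, 25.5 and 10.8 CPM). Xcr1 and Flt3 had means of 1.63 and 1.34 CPM, Clec9a, Itgax and Siglech were under 1 CPM, and Cd209a was at 0. Neutrophil markers summed to at most 0.299 CPM in any library. The sum over 10 NK cell and ILC1 markers was 71.2 to 89.9 CPM with IFN-γ alone and 112 to 137 CPM with IGF-1, with Eomes at 0. The difference lay in Ncr1, a receptor that ILC3s also express (means of 28.2 and 71.5 CPM), while Klrb1c had means of 38.2 and 30.7 CPM and Klrd1 of 6.74 and 6.99 CPM. IFN-γ replicate 3 stood apart in plasma cell transcripts, with 519 CPM of Jchain against 0.103 to 0.209 CPM in the other 5 libraries. That library also had 10.3 CPM of Ly6c2, a gene of the macrophage and monocyte list, against 0 to 0.377 CPM in the others. The part of these transcripts in the PYHIN values was not tested.

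The promoters of the family are shown first because they share a short element. A promoter window here is the stretch from 250 bases before to 50 bases after an annotated start, from RefSeq on GRCm38.p6, and 9 of the 10 members had one (11 windows in all), Ifi204 being the exception. The counts themselves were made on GRCm39, and start sites were not measured in these data. Windows were searched on both strands for the interferon-stimulated response element (ISRE, GAAA, any 2 bases, GAAA), which IRF factors bind, for the GAS element (TTCNNNGAA), through which IFN-γ acts on many promoters, and for a FOXO element (TGTTTAC), whose factors PI3K-AKT signalling restrains. The ISRE letters were found in 7 of 9 members and in 3.44% of all 32851 promoter windows. In 6 members they were the same 10 bases, GAAATCGAAA, which were present in 16 windows in all (0.0487%). Of those 16, 7 belonged to the family (the 6 members and Ifi214), and the others included Ripk1, Parp11 and Ddx58, which encodes the RNA sensor RIG-I. This particular version of the element was picked out after the windows were read, and the windows are copies of one another, so the members are not independent cases. The stretches around the element are given 5′ to 3′ with the element, or the bases aligned to it, in capitals.
Mndal and Ifi203: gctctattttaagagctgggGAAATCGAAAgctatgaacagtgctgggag
Ifi208 and Ifi213: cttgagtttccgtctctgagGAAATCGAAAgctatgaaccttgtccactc
Ifi206: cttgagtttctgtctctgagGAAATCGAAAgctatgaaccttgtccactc
Ifi207: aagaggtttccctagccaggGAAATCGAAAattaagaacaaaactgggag
Ifi211: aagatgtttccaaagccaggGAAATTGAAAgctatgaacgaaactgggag
Ifi209: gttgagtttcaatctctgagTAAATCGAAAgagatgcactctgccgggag
Ifi214: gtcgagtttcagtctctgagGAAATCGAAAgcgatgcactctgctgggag

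The element began 35 to 73 bases before the annotated start in the 7 members that held it on the gene's own strand. The 50 bases were letter for letter the same in Mndal and Ifi203, and again in Ifi208 and Ifi213. Mndal and Ifi203 each had windows at a start 1 and a start 2, and the shared stretch was from start 1 of Mndal and start 2 of Ifi203. The window at start 1 of Ifi203 held no ISRE match, and that at start 2 of Mndal held a match on the opposite strand. Ifi211 differed from the recurring letters by C6T, counted from 1 at the element's 5′ end, which keeps an ISRE match. Ifi209 was the exception within its own group. Its window aligned to that of Ifi214 over 300 columns with 95.7% identity, but the aligned 10 bases differed by G1T, and the window held no ISRE match. A match is a description of letters and not a measured binding site, and a missing match says only that these letters are not in this window.

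By alignment the windows fell into groups. Ifi206, Ifi208 and Ifi213 were 98.5% to 98.9% identical over their aligned stretches and were the members with a FOXO match, which 3.65% of all windows held. Mndal (start 1) and Ifi203 (start 2) were 94.3% identical over 299 columns, and Ifi207 and Ifi211 were 87.5% identical over 297. No member held a GAS match (8.30% of all windows did), whereas a version with 4 bases between TTC and GAA was found in 5 members, against 6.95% of windows. In Ifi203 this version lay in the window at start 1, which held no ISRE match. The windows of Aim2 and Ifi209 held none of these motifs. The windows of 3 members are printed whole, with ISRE and FOXO matches, and in Ifi209 the aligned bases, in capitals: Ifi209, which has the largest change below and the altered element (chr1:173630609-173630908, plus strand), Mndal, one of the most abundant (chr1:173880138-173880437, minus strand), and Ifi208, which has both ISRE and FOXO matches (chr1:173673415-173673714, plus strand).
Ifi209: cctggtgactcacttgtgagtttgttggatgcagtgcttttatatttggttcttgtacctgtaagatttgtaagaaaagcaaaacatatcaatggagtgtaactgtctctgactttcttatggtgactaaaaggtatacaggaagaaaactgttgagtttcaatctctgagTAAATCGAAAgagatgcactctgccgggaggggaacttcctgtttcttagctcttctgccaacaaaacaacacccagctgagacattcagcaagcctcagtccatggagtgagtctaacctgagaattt
Mndal: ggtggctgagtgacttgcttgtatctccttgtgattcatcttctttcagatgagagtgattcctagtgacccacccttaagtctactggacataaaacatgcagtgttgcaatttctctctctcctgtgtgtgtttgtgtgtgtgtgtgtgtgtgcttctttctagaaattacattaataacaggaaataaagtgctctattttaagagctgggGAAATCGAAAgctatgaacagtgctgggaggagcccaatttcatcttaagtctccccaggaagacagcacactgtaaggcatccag
Ifi208: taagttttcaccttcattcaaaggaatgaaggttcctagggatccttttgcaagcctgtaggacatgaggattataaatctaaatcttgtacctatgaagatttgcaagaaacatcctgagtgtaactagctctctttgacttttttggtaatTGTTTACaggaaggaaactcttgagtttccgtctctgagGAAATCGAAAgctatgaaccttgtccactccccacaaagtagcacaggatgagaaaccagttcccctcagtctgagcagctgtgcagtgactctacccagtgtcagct

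**Figure D1:**
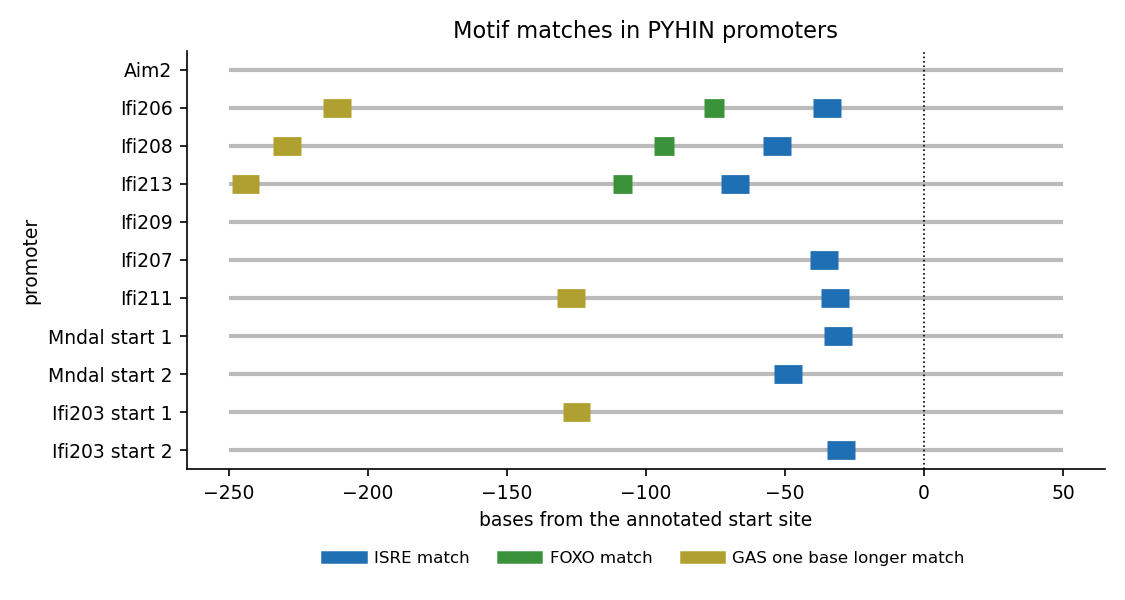
Positions of motif matches in the 11 promoter windows of 9 members, as bases from the annotated start site (dotted line); coloured blocks are matches to the ISRE, FOXO and longer GAS letters on either strand, and grey lines the windows. ISRE matches of 7 members sit within 73 bases before a start, and the windows of Aim2 and Ifi209 show no block.

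The family together took 0.122% to 0.165% of all counts with IFN-γ alone and 0.0915% to 0.0992% with IGF-1. Most of it came from a pair of genes, Ifi203 and Mndal, which held 74.4% to 81.0% of the family's counts in each of the 6 libraries. Mndal is named for its likeness to the human myeloid nuclear differentiation antigen. Per kilobase of annotated exon, the order of levels over the 6 libraries was Mndal (107 ± 29.6 CPM per kilobase, SD, n = 6), Ifi203 (82.7 ± 20.8), Ifi209 (26.5 ± 9.33), Ifi204 (19.4 ± 3.47), Ifi206 (11.9 ± 2.42), Aim2 (9.56 ± 2.10) and Ifi208 (4.53 ± 1.49). Ifi211, Ifi213 and Ifi207 followed at 1.61 ± 0.736, 1.53 ± 0.464 and 1.09 ± 0.677 CPM per kilobase. Neighbours in the order within a spread of each other were Mndal and Ifi203, Ifi209 and Ifi204, Ifi206 and Aim2, and the last 3 genes. The steps from Ifi203 to Ifi209, from Ifi204 to Ifi206, from Aim2 to Ifi208 and from Ifi208 to Ifi211 were larger than the SDs on either side added together. When length was taken from the longest coding transcript instead, Ifi204 moved ahead of Ifi209 and Ifi213 ahead of Ifi211.

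**Figure D2:**
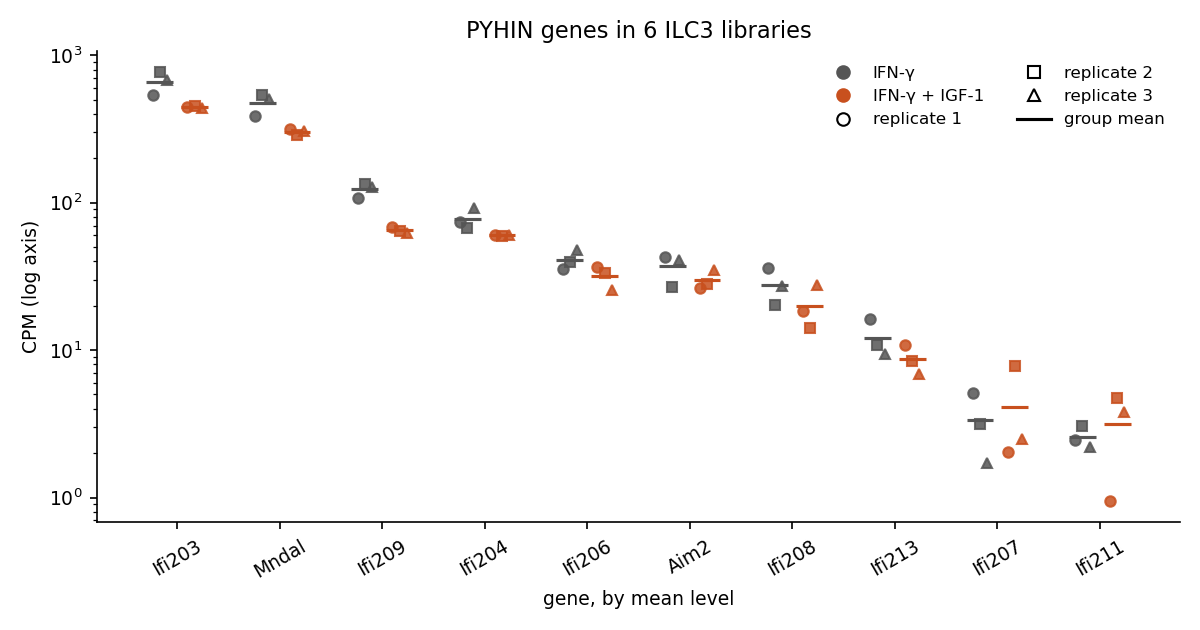
CPM of each PYHIN gene in each library on a log axis, grey for IFN-γ alone and orange for IFN-γ plus IGF-1, with a symbol for each replicate and a line for the group mean. For Ifi203, Mndal, Ifi209 and Ifi204 every orange point lies below every grey point, while the other 6 genes overlap.

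With IGF-1 the abundant members were lower. Ifi209 had the largest difference, Mndal and Ifi203 followed, and 8 of the 10 members had a negative log2 fold change, against 51.3% of the 13483 genes tested. The median over the 10 members, all of which passed the filter on low counts, was -0.42, and the median over all genes tested was -0.01. Ifi209 was the 1 member past an adjusted p of 0.05 in edgeR's quasi-likelihood test, beside 0.267% of all genes called lower, 0.23% called higher and 0.497% called in either direction. Groups did not overlap in 4 members, all lower with IGF-1, beside 9.17% of all genes that were lower without overlap and 18.0% without overlap in either direction. The members were chosen with this contrast known, so nothing is read from these counts. In bulk libraries a smaller share of expressing cells and less RNA per cell cannot be told apart.

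Ifi209, also named Pyhin1, is a nuclear member of the family. It stood at 107, 134 and 128 CPM in the 3 libraries with IFN-γ alone and at 68.3, 64.1 and 62.6 CPM in those with IGF-1. The highest IGF-1 library was well below the lowest library without it. The log2 fold change (with IGF-1 over without) was -0.92 (SE 0.13), a difference of -47.2%. Over the 6 fits that each left out 1 library it lay between -1.01 and -0.86, and Ifi209 was called only in the fit without IFN-γ replicate 1. In that fit Ifi203 and Mndal were called as well, 3 members in all, beside 31 genes lower and 24 higher of the 14097 genes it tested. Relative to Ifi203 within the same library, which does not depend on how libraries are scaled, Ifi209 counts were 0.200, 0.175 and 0.187 with IFN-γ alone and 0.153, 0.141 and 0.142 with IGF-1. This ratio also separated the groups, so Ifi209 was lower by a larger factor than Ifi203.

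Mndal was at 388, 535 and 506 CPM with IFN-γ alone and at 318, 286 and 305 CPM with IGF-1. Its groups did not overlap, with IFN-γ replicate 1 nearest to the IGF-1 libraries. The log2 fold change was -0.65 (SE 0.14). Ifi203 showed the same order among the libraries with IFN-γ alone, with 538, 768 and 681 CPM against 446, 455 and 440 CPM, and a log2 fold change of -0.57 (SE 0.14). The libraries with IGF-1 were much closer together (447 ± 7.54 CPM, SD, n = 3) than those without (663 ± 116 CPM). The ratio of Ifi203 to Mndal counts was 1.35 to 1.44 with IFN-γ alone and 1.40 to 1.59 with IGF-1, overlapping between groups. By DESeq2, Ifi203, Mndal and Ifi209 were called lower, beside 1.90% of all genes.

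Ifi204, the DNA sensor related to IFI16, was at 73.9, 67.7 and 91.4 CPM with IFN-γ alone and at 60.8, 59.1 and 60.6 CPM with IGF-1. The groups did not overlap, although IFN-γ replicate 2 was close to the IGF-1 libraries. Its log2 fold change was -0.37 (SE 0.14), or -0.24 without IFN-γ replicate 3, the highest library.

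Aim2, the inflammasome sensor, overlapped between groups. It was at 43.0, 26.9 and 41.0 CPM with IFN-γ alone and 26.6, 28.0 and 35.2 CPM with IGF-1, a log2 fold change of -0.30 (SE 0.20). IFN-γ replicate 2 was nearly as low as the lowest IGF-1 library, and without it the log2 fold change was -0.49. Over the fits that each left out 1 library it ranged from -0.49 to -0.18, the latter without IFN-γ replicate 1. Ifi206 was at 35.3, 39.7 and 47.9 CPM against 36.4, 33.2 and 25.6 CPM (-0.37, SE 0.18). Ifi208 was at 35.8, 20.1 and 27.1 CPM against 18.5, 14.0 and 27.5 CPM (-0.47, SE 0.28). In both genes 1 IGF-1 library lay inside the range of the IFN-γ libraries, replicate 1 for Ifi206 and replicate 3 for Ifi208. Ifi213 was at 16.1, 10.8 and 9.47 CPM against 10.9, 8.44 and 6.89 CPM (-0.48, SE 0.29), with IFN-γ replicate 1 above all the rest. Without that library the Ifi213 value was -0.22. Ifi208 was at -0.23 without it, at -0.27 without IGF-1 replicate 2 and at -0.76 without IGF-1 replicate 3, and the value of Ifi206 was -0.24 without IFN-γ replicate 3 or IGF-1 replicate 3.

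The remaining pair were rare transcripts and had positive values with wide errors. Ifi207 was at 5.16, 3.17 and 1.73 CPM with IFN-γ alone and 2.03, 7.74 and 2.51 CPM with IGF-1 (0.29, SE 0.60). Ifi211 was at 2.47, 3.08 and 2.2 CPM against 0.953, 4.73 and 3.79 CPM (0.29, SE 0.59). IGF-1 replicate 2 was the highest library for both, and without it the log2 fold changes were -0.57 and -0.13. Ifi205, a family gene outside the 10, was also highest in that library, with 168 counts against 56 in IGF-1 replicate 3 and 5 to 16 in the other 4 libraries (log2 fold change 2.60, SE 1.09, edgeR adjusted p = 0.379). The macrophage and monocyte sum of that library was 43.7 CPM, inside the range of the others, but Cd14 (6.32 CPM against 1.59 to 4.05 CPM) and Fcgr1 (1.57 CPM against 0 to 0.257 CPM) were highest there. Their part in these values was not tested. Of the other family genes with a row, Ifi214 had 9 to 52 counts per library (0.13, SE 0.88, edgeR adjusted p = 0.976) and Ifi202b had 7 counts in all, too few to test.

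**Figure D3:**
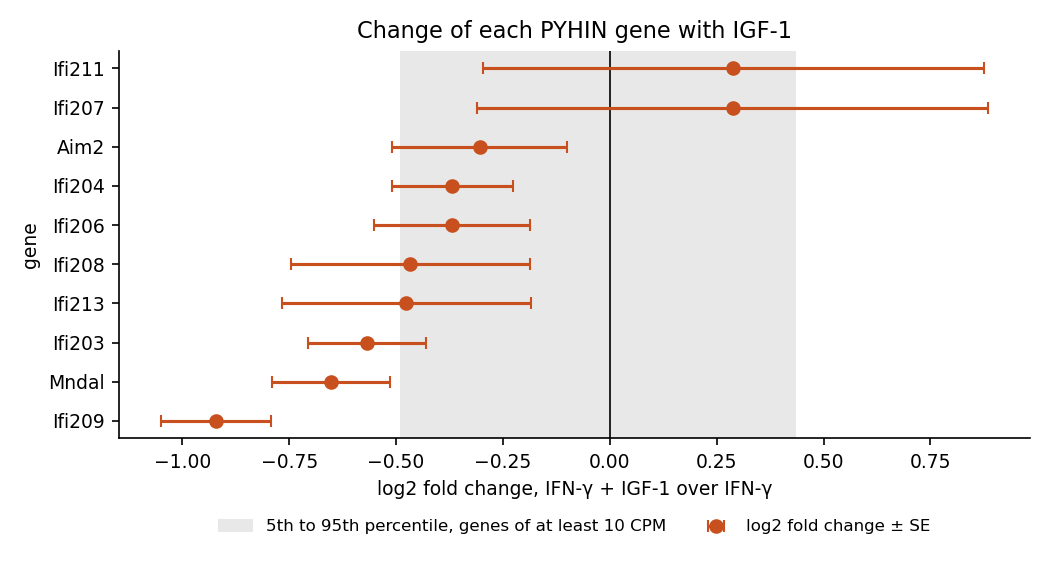
Log2 fold change of each PYHIN gene with its standard error, from edgeR over all genes; the grey band spans the 5th to 95th percentile of genes with a mean of at least 10 CPM. Ifi209, Mndal and Ifi203 lie below the band, and Ifi207 and Ifi211 have bars that cross 0.

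Because the copies are alike, the transcripts were compared for shared stretches of 50 bases. Longer reads that cover such a stretch could still be assigned by their other bases, and read length was not taken into account. Of all distinct 50-base stretches in the annotated transcripts of a gene (GENCODE M21), the share also found in another gene was 0.740% for Aim2, 7.29% for Ifi207, 12.4% for Ifi203, 19.6% for Mndal, 20.0% for Ifi204 and 33.8% for Ifi209. Aim2 is therefore the member least exposed to shared reads. Ifi209 shared almost only with Ifi214 (33.4% of its stretches), whose own counts were at most 52 per library against at least 2209 for Ifi209. Ifi203 and Mndal shared few stretches with each other (3.34% and 6.19%). Ifi211 was the most exposed, with 72.8% of its stretches found elsewhere, 44.7% in Ifi205, 30.1% in Ifi204 and 17.1% in Mndal. Ifi208 and Ifi213 shared 18.1% and 13.6% of theirs with each other. How the counting treated reads that match several genes is not given in the sources used here, so the counts of Ifi211 are uncertain, and those of Ifi209 and the other members that share stretches carry some of the same doubt.

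**Figure D4:**
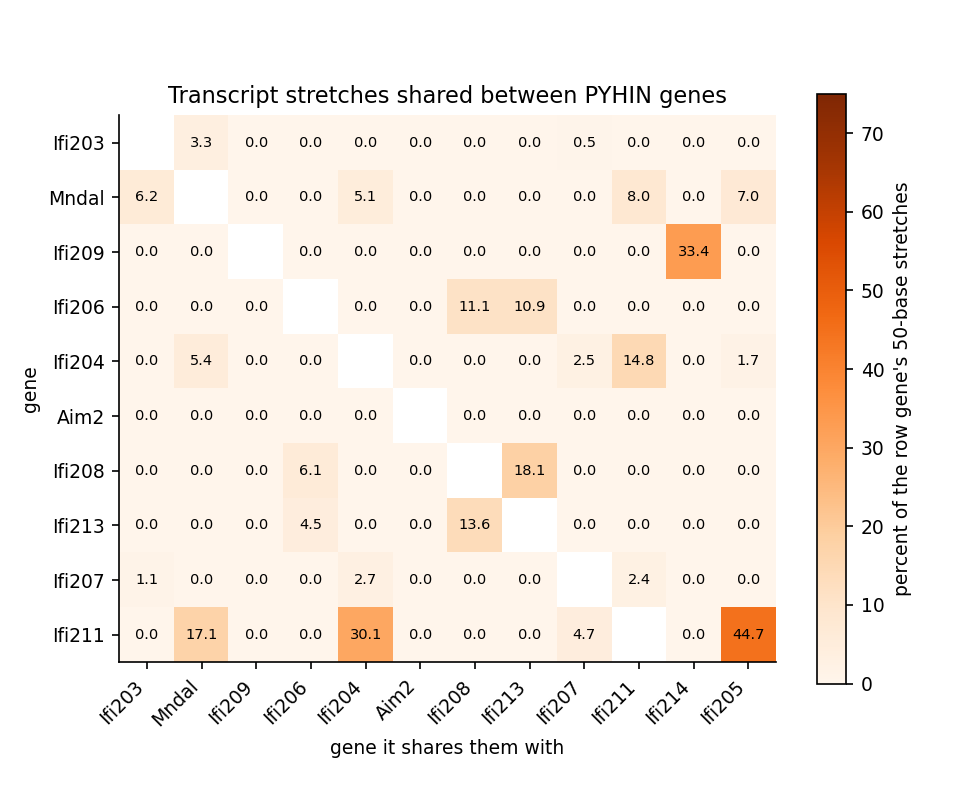
Percent of the distinct 50-base transcript stretches of each member (rows) that also occur in transcripts of another family gene (columns). The darkest cells are Ifi211 with Ifi205 (44.7%), Ifi209 with Ifi214 (33.4%) and Ifi211 with Ifi204 (30.1%), while the row of Aim2 is at 0.

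The members did not vary together as one block between libraries of the same group. Deviations of log2 CPM from the group mean, which do not use the difference between groups, were correlated over the 6 libraries (4 free values, shared libraries and depth). Over the 6 libraries Ifi203, Mndal and Ifi209 had r of 0.92, 0.93 and 0.96 with each other, whereas Aim2 and Ifi208 formed another pair (r = 0.83). Between these sets all values were negative, from -0.74 (Aim2 with Ifi209) to -0.46 (Ifi208 with Mndal). IFN-γ replicate 1 was lowest for Ifi203, Mndal and Ifi209 and highest for Aim2 and Ifi208 among the libraries with IFN-γ alone, and IFN-γ replicate 2 was the reverse. The high r of Ifi203, Mndal and Ifi209 came mostly from these libraries, where Ifi203 deviated by -0.285, 0.229 and 0.056. In IGF-1 replicates 1 to 3 its deviations were -0.004, 0.026 and -0.022. Those of Mndal were 0.073, -0.082 and 0.009, opposite in sign to Ifi203 in each, and those of Ifi209 were 0.072, -0.019 and -0.053. The macrophage and monocyte sum was also lowest in IFN-γ replicate 1 (34.5 CPM) and highest in replicate 2 (55.5 CPM). That order came from Mpeg1 (13.4, 37.8 and 20.3 CPM in replicates 1 to 3), while Cd68 (14.1, 9.45 and 14.5 CPM) and Cd14 (4.05, 2.78 and 1.59 CPM) did not share it. Their part was not tested. The median r over the 45 pairs of members was -0.20. Over the 28 pairs of the 8 members with a mean of at least 10 CPM it was -0.02. Over all pairs of genes with a mean of at least 10 CPM it was 0.00. With so few libraries high values are common: 2.64% of all such gene pairs had an r of at least 0.9 and 11.5% of at least 0.7. Aim2 and Ifi208 had 0% of their transcript stretches in common, and likewise Ifi209 with Ifi203 or Mndal.

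**Figure D5:**
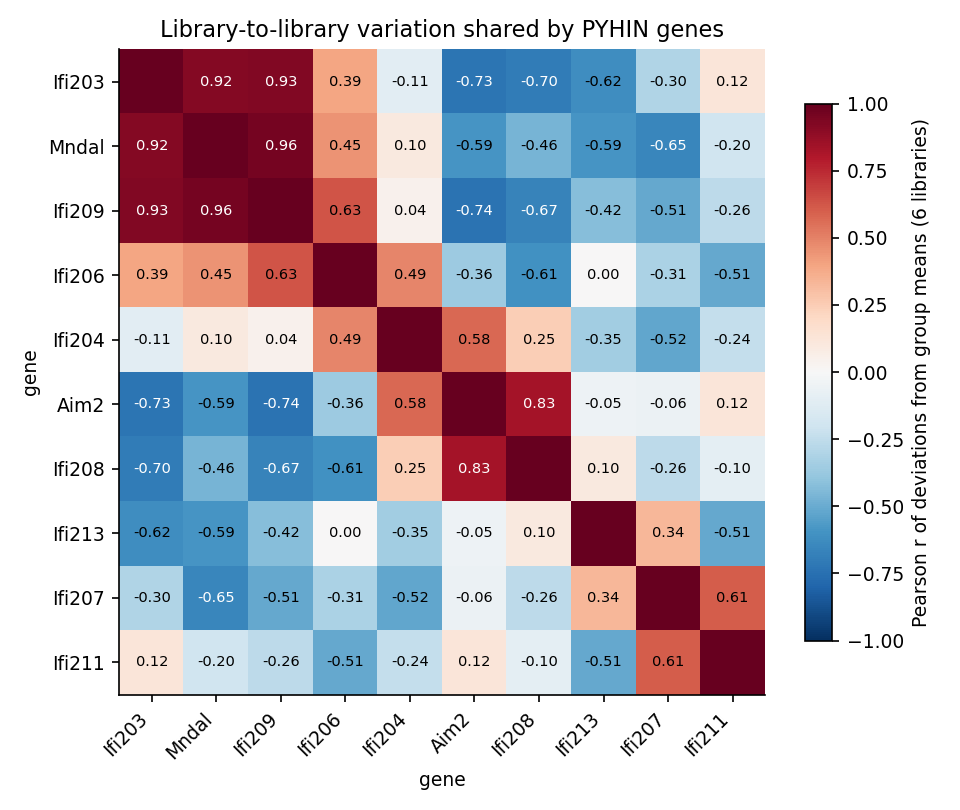
Pearson r between members of the deviations of log2 CPM from their group means over 6 libraries, red for positive and blue for negative. Ifi203, Mndal and Ifi209 form a red block (0.92 to 0.96), Aim2 and Ifi208 a second one (0.83), and the cells between these sets are blue.

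The profile most like the mean of the 10 members over all 6 libraries was that of Mms22l, a DNA repair gene (r = 0.995). Upp1, Rxrb, Dnajb2 and Lrrfip2 followed with r from 0.990 to 0.985, among 8336 genes compared. This r includes the difference between the groups, and these genes are the top of a long list, given as a description.

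Among the partners of Aim2, those that form the inflammasome were measured at higher levels than the cytokines it matures. Caspase-1 (Casp1) was at 172 ± 26.8 CPM with IFN-γ alone and 192 ± 14.4 CPM with IGF-1 (0.16, SE 0.14, edgeR adjusted p = 0.731). The adaptor Pycard was at 37.4 ± 5.62 and 50.6 ± 8.97 CPM (0.44, SE 0.18, edgeR adjusted p = 0.364). Il1b and Il18 were near the limit of detection, at 1.13 ± 1.25 and 0.509 ± 0.202 CPM with IFN-γ alone and 2.09 ± 2.73 and 0.405 ± 0.429 CPM with IGF-1. The pore-forming gasdermin Gsdmd was at 111 ± 1.18 and 79.9 ± 3.40 CPM (-0.48, SE 0.11, edgeR adjusted p = 0.118), and the cytosolic lipopolysaccharide sensor Casp4 at 65.4 ± 0.573 and 45.3 ± 5.36 CPM (-0.53, SE 0.14, edgeR adjusted p = 0.147). For both the groups did not overlap, but neither passed over all genes. Over the list, groups did not overlap in 3 genes that were lower and 3 that were higher, Card19 and Casp8 among the latter. Of all genes, 9.17% were lower without overlap and 18.0% were without overlap in either direction. The membrane rupture protein Ninj1 (0.25, SE 0.18), Card19 (0.48, SE 0.14) and the apoptotic initiator Casp8 (0.09, SE 0.11) were the most abundant of the list beside Casp1. Of 23 tested genes of inflammasomes and pyroptosis, 0 were called by edgeR in either direction, with 2 lower and 2 higher at an unadjusted p under 0.05, beside 6.24% of all genes lower and 5.58% higher at that p. DESeq2 called Gsdmd and Casp4 lower and Card19 higher, beside 1.90% and 1.48% of all genes, and limma-voom called 0. The list's median log2 fold change was 0.09, beside -0.01 for all genes tested.

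Other sensors of nucleic acid in the cytosol had values on both sides of 0. Cgas, which makes the cyclic dinucleotide that activates STING, was scarce (6.18 ± 1.58 and 6.09 ± 1.64 CPM, -0.02, SE 0.34, edgeR adjusted p = 0.989). Sting1 itself was at 168 ± 10.8 and 140 ± 6.53 CPM (-0.26, SE 0.12, edgeR adjusted p = 0.412), and the Z-nucleic acid sensor Zbp1 at 107 ± 11.4 and 96.2 ± 16.3 CPM (-0.15, SE 0.15, edgeR adjusted p = 0.772). Among 36 tested genes 0 were called by edgeR, with 6 lower and 1 higher at an unadjusted p under 0.05 (6.24% and 5.58% of all genes), and the median was -0.03. The smallest adjusted p belonged to Samhd1, which degrades deoxynucleotides (458 ± 15.9 and 312 ± 18.3 CPM, -0.55, SE 0.11, edgeR adjusted p = 0.0717), and Hmgb2, a chromatin protein that binds DNA (158 ± 11.2 and 105 ± 4.15 CPM, -0.58, SE 0.12, edgeR adjusted p = 0.0719). Their groups did not overlap. DESeq2 and limma-voom each called these 2 genes lower and 0 higher, beside 1.90% and 0.445% of all genes called lower. Over the list, groups did not overlap in 6 lower genes, Sting1 among them, and in 4 higher genes, Nlrc3 among them. Of all genes, 9.17% were lower without overlap and 18.0% were without overlap in either direction. The STING inhibitor Nlrc3 was at 116 ± 27.2 and 166 ± 16.5 CPM (0.51, SE 0.18, edgeR adjusted p = 0.268). Hmgb1 (-0.04, SE 0.12), Lrrfip1 (0.06, SE 0.13) and Nono (0.08, SE 0.13) were abundant.

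The interferon signalling genes, which include the factors that bind the ISRE, had negative values in 20 of 22 tested genes, beside 51.3% of all genes, and a median of -0.29. By edgeR 0 were called in either direction, and 8 were lower and 0 higher at an unadjusted p under 0.05, beside 6.24% and 5.58% of all genes. DESeq2 called 5 lower (Ifngr2, Irf1, Irf2, Socs1 and Stat2), beside 1.90% of all genes, and limma-voom 0. The negative regulator Socs1 (-0.63, SE 0.14, edgeR adjusted p = 0.0938), the receptor chain Ifngr2 (-0.71, SE 0.16, edgeR adjusted p = 0.105) and the factor Irf1 (-0.42, SE 0.11, edgeR adjusted p = 0.142) had the smallest p of the list. The kinase Jak1 was close to 0 (0.03, SE 0.11), and the receptor chain Ifngr1 was at -0.21 (SE 0.15). Around the cluster on chromosome 1, Ackr1, which lies near Aim2, was at 1.18 ± 2.03 and 2.59 ± 3.30 CPM. Further along the chromosome Tagln2 was at 970 ± 104 and 1062 ± 84.3 CPM (0.13, SE 0.12, edgeR adjusted p = 0.740) and Dusp23 at 6.77 ± 1.72 and 7.84 ± 0.575 CPM (0.21, SE 0.29, edgeR adjusted p = 0.843). Of 4 such neighbours tested 0 were called by edgeR, DESeq2 or limma-voom, with 0 at an unadjusted p under 0.05.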

How the data were processed

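The authors deposited raw counts per gene for 6 libraries of SMART-Seq HT cDNA, a full-length kit that does not mark strand, in a table of 33157 rows. The submitters' processing notes name GRCm39, featureCounts 1.5.3, HISAT2 2.2.1, fastp 0.23.2 and SAMtools 1.15.1. Which annotation, strand setting and rule for multiple matches were used is not given in the sources. Reads were PCR copies without molecular identifiers, so counts are not numbers of molecules.

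Genes passing filterByExpr (minimum count 10, minimum total 15), 13483 in all, were fitted together with edgeR 4.0.16 in R 4.3.3 (TMM, glmQLFit, glmQLFTest, group as the only term), with Benjamini-Hochberg adjustment at 0.05. The SE is the log2 fold change over the square root of F. For a single gene the smallest p of an exact permutation test here is 0.1 (two-sided). Libraries of a group differed beyond sampling noise (chi-square per degree of freedom 37.0 to 82.8). Lengths are exon unions of GENCODE M21 (GRCm38). RefSeq promoters (GRCm38.p6) were aligned with Biopython 1.88. Protein sequences were not analysed here.

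The members and lists were chosen with earlier results of these data known. Named genes are the members, other family genes with a count, fixed partners in each pathway and, per list, any called, the 4 most abundant and the 3 with the smallest p (for neighbours, the 3 most abundant). Genes of shared promoter letters, DESeq2 calls and cell markers were named after their values were seen. Likeness took the 5 highest r. Alternatives were a replicate block, RLE and upper quartile scaling, DESeq2 1.42.0, limma-voom (limma 3.58.1), no filter, a minimum of 10 CPM in 3 libraries, a longer GAS, leaving out each library in turn and, chosen after seeing the data, length from the longest coding transcript.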

Additional observations from a re-analysis of the deposited data

How the results depend on the processing

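The sign of the log2 fold change was kept in all 13 alternatives by Ifi203, Ifi204, Ifi206, Ifi208, Ifi209, Ifi213, Mndal and Aim2, and the median over the members stayed between -0.48 and -0.32. Those members were chosen with the contrast known, so a kept sign is no sign of stability. Ifi209 was called in 7 of the 13 alternatives. Ifi207 ranged from -0.57 to 0.74 with 1 library left out, negative without IGF-1 replicate 2 (-0.57) or control replicate 3 (-0.03). Ifi211 ranged from -0.13 to 0.72, negative without IGF-1 replicate 2 (-0.13), and was -0.022 by limma-voom. Neither could be fitted under the filter of 10 CPM, which removes them.

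The number of members called lower, 1 in the reported fit, was 3 by DESeq2, without a filter and with the filter of 10 CPM in 3 libraries, and 0 to 3 when 1 library was left out. Over all 13483 genes tested, 36 were lower and 31 higher. Among the same genes these became 256 and 200 by DESeq2, and 60 lower by limma-voom. They were 258 and 171 of 23260 genes without a filter, and 115 and 63 of 8625 with the filter of 10 CPM. When 1 library was left out, 0 to 31 were lower and 0 to 24 higher, of 13991 to 14097 genes. Called inflammasome genes, 0 in the reported fit, were 2 lower and 1 higher by DESeq2. Called nucleic acid sensing genes were 2 lower by DESeq2, by limma-voom, without a filter and with the filter of 10 CPM, and 1 higher without a filter. Called interferon signalling genes were 5 lower by DESeq2, 4 without a filter, 1 with the filter of 10 CPM and 0 to 1 when 1 library was left out (Stat2 without control replicate 1). The median of the nucleic acid sensing list was -0.03 and ranged from -0.021 to 0.023 when 1 library was left out, turning positive without control replicate 2 (0.023) and when IGF-1 replicate 2 was dropped (0.0047). The cause of these changes was not tested, beyond fewer genes or fewer samples in a fit. Members with a GAS match rose from 0 to 5 with 4 bases between TTC and GAA.

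Replicate numbers are shared between the groups in the labels, which do not say whether they pair the libraries. Deviations of same-numbered libraries from their group means correlated at -0.05, 0.00 and 0.05 across genes, and not every library correlated best with its own number. With 3 libraries per group these values cannot decide whether the libraries were paired. With the replicate block 5 genes were lower and 3 higher, and 0 members were called.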
